A study of Mus musculus with 64 samples.

Results

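The postsynaptic density scaffold genes Dlg1, Dlg2, Dlg3, Dlg4, Dlgap1, Shank1, Shank2, Shank3 and Homer1 were followed in mouse hippocampus and prefrontal cortex by taking all probe sets that carry one of these symbols and no other. The rule gave 24 of the 45101 probe sets of an Affymetrix whole-genome array, for 8 of the 9 genes: 6 probe sets for Dlgap1, 6 for Homer1, 3 each for Dlg1, Dlg2 and Dlg4, and 1 each for Dlg3, Shank1 and Shank3. No probe set carried Shank2 as its single symbol, so that gene was not analysed here. The 64 arrays form 8 groups of 8, made of a brain region, a genotype and a treatment. Tg2576 mice (Tg+, over-expressing a human mutant amyloid precursor protein) and their non-transgenic wild-type littermates (Tg-) were all of the F1 cross B6SJLF1, between C57Bl/6 and SJL, and 4 months old. In each genotype, mice received either vehicle or the PDE9A inhibitor PF-04447943 by subcutaneous minipump for 28 days, so every control also carried a pump. PDE9A is a phosphodiesterase that breaks down cyclic GMP. In the Tg2576 line, as background, a prion protein promoter drives the transgene, so its product is not limited to the neurons of the 2 regions. Hippocampus and cortex were dissected from 8 mice per group, but the labels do not tie the arrays of the 2 regions to individual mice. The design text calls the cortical tissue frontal cortex and the sample labels call it prefrontal cortex.

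These proteins build the dense protein meshwork under the membrane of excitatory synapses. The membrane-associated guanylate kinases encoded by Dlg1 to Dlg4 hold glutamate receptors and adhesion proteins through their PDZ domains, and the Dlgap1 product links them to the Shank proteins. Shank proteins in turn bind Homer1, whose long forms join Shank to metabotropic glutamate receptors and to calcium channels of internal stores, while a short Homer1 form induced by neuronal activity lacks the coiled coil and loosens that link. All are background facts and none was measured here, where only messenger RNA was read.

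The sequences upstream of the 3 genes on which the regional results turn are printed first, each as the 250 bases before a RefSeq transcript start on the plus strand of GRCm38.p6. Capitals mark the motif found by a letter search on both strands. In Homer1 (chr13:93303507-93303756) they mark 3 copies of TGACG, the half-site of the cyclic AMP response element. In 2 windows of Dlg1 (the first at chr16:31663193-31663442, the second at chr16:31663685-31663934) they mark the E-box CACGTG. In Shank3 (chr15:89499358-89499607) they mark CGCCCCCGC, the reverse complement of the early growth response motif GCGGGGGCG.
Homer1: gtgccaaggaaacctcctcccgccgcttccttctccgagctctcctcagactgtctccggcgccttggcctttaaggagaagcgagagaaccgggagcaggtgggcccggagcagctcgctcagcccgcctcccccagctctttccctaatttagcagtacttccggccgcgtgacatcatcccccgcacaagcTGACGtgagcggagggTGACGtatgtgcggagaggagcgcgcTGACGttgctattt
Dlg1, first window: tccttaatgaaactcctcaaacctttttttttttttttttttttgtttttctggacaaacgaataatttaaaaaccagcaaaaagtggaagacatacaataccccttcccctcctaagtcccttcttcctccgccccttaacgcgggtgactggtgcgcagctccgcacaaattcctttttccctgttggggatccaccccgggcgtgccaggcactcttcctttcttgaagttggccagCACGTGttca
Dlg1, second window: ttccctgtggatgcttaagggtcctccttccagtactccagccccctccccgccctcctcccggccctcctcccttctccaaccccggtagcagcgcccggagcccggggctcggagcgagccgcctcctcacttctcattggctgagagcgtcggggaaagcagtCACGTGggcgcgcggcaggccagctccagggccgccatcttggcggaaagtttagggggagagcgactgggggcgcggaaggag
Shank3: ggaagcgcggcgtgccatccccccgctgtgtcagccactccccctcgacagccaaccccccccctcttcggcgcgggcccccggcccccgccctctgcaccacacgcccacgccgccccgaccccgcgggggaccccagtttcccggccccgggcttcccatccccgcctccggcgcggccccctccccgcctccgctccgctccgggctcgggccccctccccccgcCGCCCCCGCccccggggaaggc
Among 32851 promoter windows of this length, 17.8% held TGACG on either strand, 6.02% held CACGTG and 2.57% held GCGGGGGCG. Of the 17 windows of the scaffold genes, 3 held the half-site (in Homer1, Dlg4 and Dlg3), 3 held the E-box (in Dlg1 and Dlgap1) and 1 held the early growth response motif (in Shank3). Only windows with a match are printed above. Other windows of Homer1 and Dlg1 held none of these motifs. The full element TGACGTCA, which contains the half-site, was in 1.55% of all windows and in 0 of the 17. These matches describe letters only.

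Values were deposited array intensities, which are used here on the log2 scale. A probe set was tested in a fit when its mean passed the 40th percentile of all probe sets. That left 21 of the 24 scaffold probe sets in hippocampus, 22 in cortex and 22 in the fit over both regions, each time among 27022 tested. Shank1 (1444240_at) and the Dlg1 probe set 1445798_at were too dim in both regions, and the Homer1 probe set 1425671_at was too dim in hippocampus alone. Neither Shank1 nor Dlg1 1445798_at enters a test: group values of Shank1 lay between 5.54 and 6.30 over all hippocampal arrays and between 5.54 and 6.18 over all cortical ones, and Dlg1 1445798_at averaged 4.13 and 4.49. Because probes differ in how brightly they bind, levels are compared only within a probe set.

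Pan-neuronal marker genes had group means of 13.21 to 13.32 in all 8 groups. Markers of the dissected region stood apart most clearly on the array labelled hippocampus, Tg2576, PF-04447943, replicate 1. Its mean over hippocampal marker genes was 7.36, against 9.31 to 10.09 on the other 31 hippocampal arrays and 6.55 to 7.38 in cortex, and its mean over cortical marker genes was 9.75, above the 8.19 to 9.23 of those 31 arrays. In cortex the mean over cortical marker genes was 9.60 to 10.47 on 30 arrays, but it was 9.15 on vehicle-treated wild-type replicate 5 and 9.22 on treated wild-type replicate 8, inside the hippocampal range. The mean over hippocampal marker genes was 7.38 and 7.19 on these 2 arrays, below that of the 31 hippocampal arrays. Their mean over striatal marker genes, described further below, was high, at 11.78 and 11.05. On the array labelled hippocampus, Tg2576, PF-04447943, replicate 1, Dlg1 1415691_at and all 6 Homer1 probe sets read above the other 31 hippocampal arrays, near or among the cortical values. Dlg1 1450768_at read 10.37 there, between the highest of those 31 arrays (10.11) and the lowest cortical array (10.52). Dlg3 1416918_at read 10.26 there, below those 31 arrays (10.39 to 10.82) and within the cortical values (10.21 to 10.66). Dlg1 1415691_at read 11.38 there, against 10.37 to 10.97 on the other hippocampal arrays and 11.38 to 11.88 in cortex. Homer1 1437363_at read 11.45 there, against 10.74 to 11.20 and 11.43 to 12.25. Shank3 1419137_at read 10.95 there, inside the range of the other hippocampal arrays. For Shank3 the other hippocampal arrays ran from 10.88 to 11.54 and the cortical arrays from 9.96 to 10.78. The array is kept under its label. Without it, all 13 regional calls in treated Tg2576 mice remained, with no other call, and 0 scaffold probe sets were called in each drug or transgene comparison it enters. The single differences described below are given without it where they turn on it, and those without either cortical array stand beside the genes they concern.

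The strongest pattern was a difference between the brain regions. Dlg1 and 5 probe sets of Homer1 were lower in hippocampus than in prefrontal cortex in all 4 combinations of genotype and treatment, and Shank3 was higher in hippocampus in all 4. Of the 22 tested scaffold probe sets, 8 were lower in hippocampus in all 4 groups (2 of Dlg1 and 6 of Homer1, against 13.6% of all probe sets tested) and 2 were higher in all 4 (Shank3 and Dlgap1 1429105_at, against 11.1%). One of these 8, Homer1 1425671_at, lay below the filter in hippocampus (33.6th percentile) and entered this fit through its cortical level, so its lower value in hippocampus is tied to how it was kept and is not counted as support. That leaves 7 lower and 2 higher of the 21 probe sets above the filter in both regions. Another 6 passed in 1 to 3 groups and 6 in none. In tissue RNA, fewer cells of a type and less RNA per cell cannot be told apart.

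Group by group, with Homer1 1425671_at among those lower in each, in limma's moderated test with Benjamini-Hochberg adjustment, 5 scaffold probe sets were higher and 9 lower in hippocampus of vehicle-treated wild-type mice, where 18.4% of all probe sets were higher and 22.1% lower (40.5% either way). In vehicle-treated Tg2576 mice the counts were 5 higher and 8 lower (19.7% and 29.8% of all, 49.6% either way). Under PF-04447943 they were 6 and 8 in wild-type mice (20.4% and 18.2%, 38.6% either way) and 4 and 9 in Tg2576 mice (16.5% and 21.3%, 37.8% either way). The median difference over the scaffold probe sets was -0.13, 0.01, 0.01 and -0.06 in that order, beside -0.02, -0.05, 0.00 and -0.02 over all probe sets tested. Groups of 8 did not overlap between regions for 7, 8, 9 and 5 of the 22 scaffold probe sets in the same order, against 12.1%, 12.5%, 12.8% and 5.78% of all. Without the array that goes against its label, the last comparison still had 4 higher and 9 lower, and the median was -0.04.

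**Figure D1:**
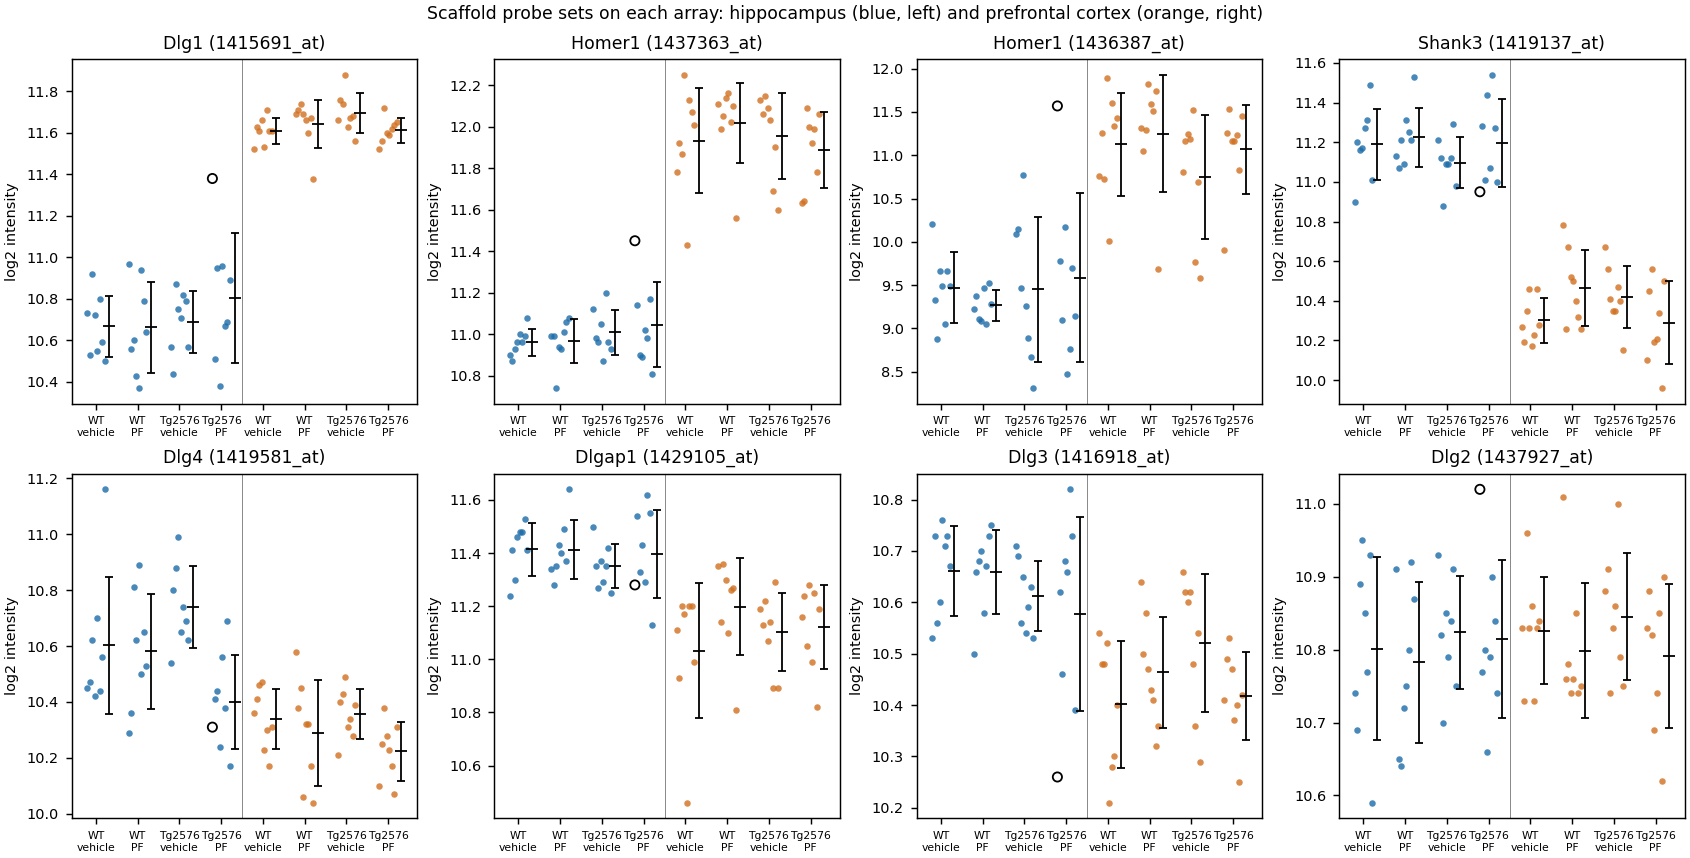
Log2 intensity (vertical axis) of 8 probe sets for 7 scaffold genes, with 1 point per array, hippocampal groups in blue at left and cortical groups in orange at right, and bars giving the mean and SD of each group of 8. For Dlg1, Homer1 1437363_at and Shank3 the blue and orange groups form separate bands, those of Homer1 1436387_at overlap, and Dlg2 1437927_at lies at the same height in all 8 groups; the open circle is the array labelled hippocampus, Tg2576, PF-04447943, replicate 1.

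Among the membrane-associated guanylate kinases, Dlg1 (16:31663443-31873356, GRCm38.p6) showed the clearest contrast between the regions. Among wild-type mice on vehicle, Dlg1 1415691_at ranged from 10.50 to 10.92 in hippocampus (median 10.66) and from 11.52 to 11.71 in cortex (median 11.61). Under PF-04447943 the wild-type ranges were 10.37 to 10.97 (median 10.62) and 11.38 to 11.74 (median 11.68). In Tg2576 mice, vehicle gave 10.44 to 10.87 (median 10.73) against 11.56 to 11.88 (median 11.68), and PF-04447943 gave 10.38 to 11.38 (median 10.79) against 11.52 to 11.72 (median 11.61). No hippocampal group overlapped its cortical partner. The 31 hippocampal arrays that matched their label all lay below the lowest cortical array, whereas the array that did not match reached that lowest value.

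The fitted Dlg1 difference was -0.94 ± 0.083 (log2, hippocampus minus cortex, SE) in vehicle-treated wild-type mice, with an adjusted p of 2.39e-14 in limma. Across the 4 groups it ran from -1.01 to -0.81, which is 1.75-fold to 2.01-fold lower in hippocampus. A second Dlg1 probe set, 1450768_at, gave -1.04 to -0.94, and its 32 hippocampal arrays all lay below the lowest of the 32 cortical arrays. In deviations from the group mean, the 2 probe sets moved together over the 64 arrays (r = 0.84), as a description. Without the array labelled hippocampus, Tg2576, PF-04447943, replicate 1, the treated Tg2576 differences were -0.89 and -1.02.

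Dlg2 (7:90476188-92449246), whose product binds receptors and potassium channels, gave different pictures from its 3 probe sets. Dlg2 1437927_at had group medians between 10.76 and 10.85 everywhere and regional differences of only -0.02 to 0.03. The dimmer Dlg2 1421199_at was lower in hippocampus in 2 of the 4 groups, with differences of -0.54 to -0.13. In vehicle-treated wild-type mice it ranged from 7.45 to 8.41 in hippocampus (median 7.96) and from 7.90 to 8.93 in cortex (median 8.58), groups that overlap. In treated Tg2576 mice its call ended without hippocampal replicate 6 (-0.25, adjusted p = 0.117) or cortical replicate 3 (-0.33, adjusted p = 0.0639), and was -0.40 (adjusted p = 0.0197) without the array that goes against its label. Dlg2 1421200_at passed in none of the 4 (-0.15 to 0.12). In deviations from the group mean over the 64 arrays, the last 2 correlated with each other (r = 0.88). There 1421200_at did not follow 1437927_at (r = -0.08), so the 3 probe sets did not all vary together within groups.

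Dlg3 (X:100767411-100818410), a kinase-like scaffold of NMDA receptors, was higher in hippocampus in 3 of the 4 groups, by a small amount. Its probe set 1416918_at ranged from 10.53 to 10.76 in hippocampus (median 10.69) and from 10.21 to 10.54 in cortex (median 10.44) of vehicle-treated wild-type mice. The ranges overlapped only at 10.53 to 10.54, and the difference was 0.26 ± 0.059 (adjusted p = 0.000286 in limma). Over the 4 groups it ran from 0.09 to 0.26. In treated Tg2576 mice, leaving out the array labelled hippocampus, Tg2576, PF-04447943, replicate 1 moved it to 0.21 (adjusted p = 0.00289). The call there ended without any one of hippocampal replicates 4, 5, 6 and 7 or cortical replicate 7, at 0.13 to 0.15 (adjusted p = 0.0504 to 0.0906).

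Dlg4 (11:70017203-70045535), the central scaffold for AMPA and NMDA receptor complexes, was higher in hippocampus in up to 3 of the 4 groups, depending on the probe set. Dlg4 1419581_at passed in 3 of the 4 groups, with differences of 0.18 to 0.38, and 1460261_at passed in 3, with 0.14 to 0.42. Dlg4 1419580_at passed in 1 group only, vehicle-treated Tg2576 mice, with differences of 0.10 to 0.19 over the 4 groups, and not without hippocampal replicate 3 (0.16, adjusted p = 0.0757) or 4 (0.15, adjusted p = 0.0841). In treated wild-type mice it passed without hippocampal replicate 1 or 2 or cortical replicate 1 (0.18 to 0.19), and 1419581_at passed in treated Tg2576 mice without hippocampal replicate 8 (0.21, adjusted p = 0.0452). In vehicle-treated wild-type mice, 1419581_at ranged from 10.42 to 11.16 in hippocampus (median 10.51) and from 10.17 to 10.47 in cortex (median 10.33). The groups overlap, with a difference of 0.26 ± 0.082 (adjusted p = 0.00782 in limma). In deviations from the group mean, the pair 1419580_at and 1419581_at correlated over the 64 arrays (r = 0.88). The probe set 1460261_at, whose group means lay close to the filter, followed them little (r = 0.22 and 0.20).

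Dlgap1 (17:69969073-70821413), the linker between the kinases and Shank, had 6 probe sets and 1 that was higher in hippocampus in all 4 groups. Dlgap1 1429105_at ranged from 11.24 to 11.53 in hippocampus (median 11.44) and from 10.46 to 11.20 in cortex (median 11.14) of vehicle-treated wild-type mice. These 2 groups did not overlap, with a difference of 0.38 ± 0.079 (adjusted p = 7.73e-05 in limma), and over the 4 groups the difference ran from 0.22 to 0.38. Without cortical replicate 5 the difference in vehicle-treated wild-type mice was 0.30 (adjusted p = 0.000529), and without the array that goes against its label it was 0.29 (adjusted p = 0.00345) in treated Tg2576 mice. In treated wild-type mice the call rested on few arrays: it was 0.18 (adjusted p = 0.0727) without hippocampal replicate 8 and 0.16 (adjusted p = 0.0977) without cortical replicate 8. Dlgap1 1436076_at passed only in the 2 PF-04447943 groups, with differences of 0.17 to 0.34 over the 4 groups. Its call ended in treated wild-type mice without cortical replicate 8 (0.25, adjusted p = 0.065) and in treated Tg2576 mice without cortical replicate 3 (0.27, adjusted p = 0.0589), where it was 0.34 (adjusted p = 0.0168) without the array that goes against its label, while in vehicle-treated wild-type mice it passed without any one of 5 arrays (hippocampal replicates 1, 3 and 8, cortical replicates 6 and 7), at 0.28 to 0.34. The other 4 probe sets passed in none.

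Shank3 (15:89493013-89560261), the scaffold that ties Dlgap1 and Homer1 to the actin cytoskeleton, was the scaffold gene with the clearest excess in hippocampus. In vehicle-treated wild-type mice, Shank3 1419137_at ranged from 10.90 to 11.49 in hippocampus (median 11.19) and from 10.17 to 10.46 in cortex (median 10.28). Vehicle-treated Tg2576 mice had 10.88 to 11.29 (median 11.11) against 10.15 to 10.67 (median 10.40). Under PF-04447943, the values were 11.07 to 11.53 (median 11.21) against 10.26 to 10.78 (median 10.45) in wild-type mice and 10.95 to 11.54 (median 11.17) against 9.96 to 10.56 (median 10.28) in Tg2576 mice. Every one of the 32 hippocampal arrays lay above the highest cortical array.

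The Shank3 difference was 0.89 ± 0.085 in vehicle-treated wild-type mice (adjusted p = 5.68e-13 in limma). Over the 4 groups it ran from 0.68 to 0.91, or 1.60-fold to 1.87-fold higher in hippocampus, with adjusted p-values from 4.64e-13 to 1.85e-09. Without the array that goes against its label, the value in treated Tg2576 mice was 0.94. Shank1 (7:44308916-44360094) was not testable, as given above.

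The 5 probe sets of Homer1 (13:93303757-93405129) that lay above the filter in both regions were lower in hippocampus in all 4 groups. Homer1 1437363_at ranged from 10.87 to 11.08 in hippocampus (median 10.96) and from 11.43 to 12.25 in cortex (median 11.97) of vehicle-treated wild-type mice. Vehicle-treated Tg2576 mice had 10.87 to 11.20 (median 10.97) against 11.60 to 12.15 (median 12.04). Under PF-04447943 the ranges were 10.74 to 11.08 (median 10.99) against 11.56 to 12.16 (median 12.07) in wild-type mice and 10.81 to 11.45 (median 11) against 11.63 to 12.09 (median 11.96) in Tg2576 mice. The regional groups did not overlap in any of the 4. The difference was -0.97 ± 0.087 in vehicle-treated wild-type mice (adjusted p = 4.59e-14 in limma) and ran from -1.05 to -0.85 over the 4 groups, or 1.80-fold to 2.07-fold lower in hippocampus.

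Homer1 1439662_at, 1421768_a_at and 1425710_a_at gave differences of similar size, from -0.92 to -0.77, from -1.06 to -0.89 and from -1.15 to -0.92. In treated Tg2576 mice they were -0.83, -0.96 and -0.96 without the array that goes against its label. Homer1 1436387_at and 1425671_at had the widest differences and also the widest spread. Homer1 1436387_at ranged from 8.88 to 10.21 in hippocampus (median 9.49) and from 10.01 to 11.89 in cortex (median 11.30) of vehicle-treated wild-type mice. Those groups overlap, and the difference was -1.66 ± 0.319 (adjusted p = 2.34e-05 in limma). Over the 4 groups it ran from -1.99 to -1.29, or 2.45-fold to 3.96-fold lower in hippocampus. Homer1 1425671_at gave -1.88 to -1.21, but its hippocampal mean of 5.54 lay below the filter of 5.93, so these values are a description and no fold is given.

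The SD over the 32 arrays of a region shows the contrast within Homer1. Homer1 1437363_at had an SD of 0.13 in hippocampus and 0.20 in cortex, whereas 1436387_at had 0.66 and 0.63 and 1425671_at had 0.58 and 0.67. Without the array labelled hippocampus, Tg2576, PF-04447943, replicate 1, the treated Tg2576 differences of these 3 probe sets were -0.91, -1.77 and -1.66. Cortical replicate 8 of the treated wild-type group had the lowest reading of its group on all 6 Homer1 probe sets, and none of the Homer1 calls was lost when any single array was left out. Without cortical replicate 8 the treated wild-type difference of Homer1 1437363_at was -1.12 and that of 1436387_at was -2.21, and without cortical replicate 5 the vehicle-treated wild-type differences were -1.04 and -1.81.

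**Figure D2:**
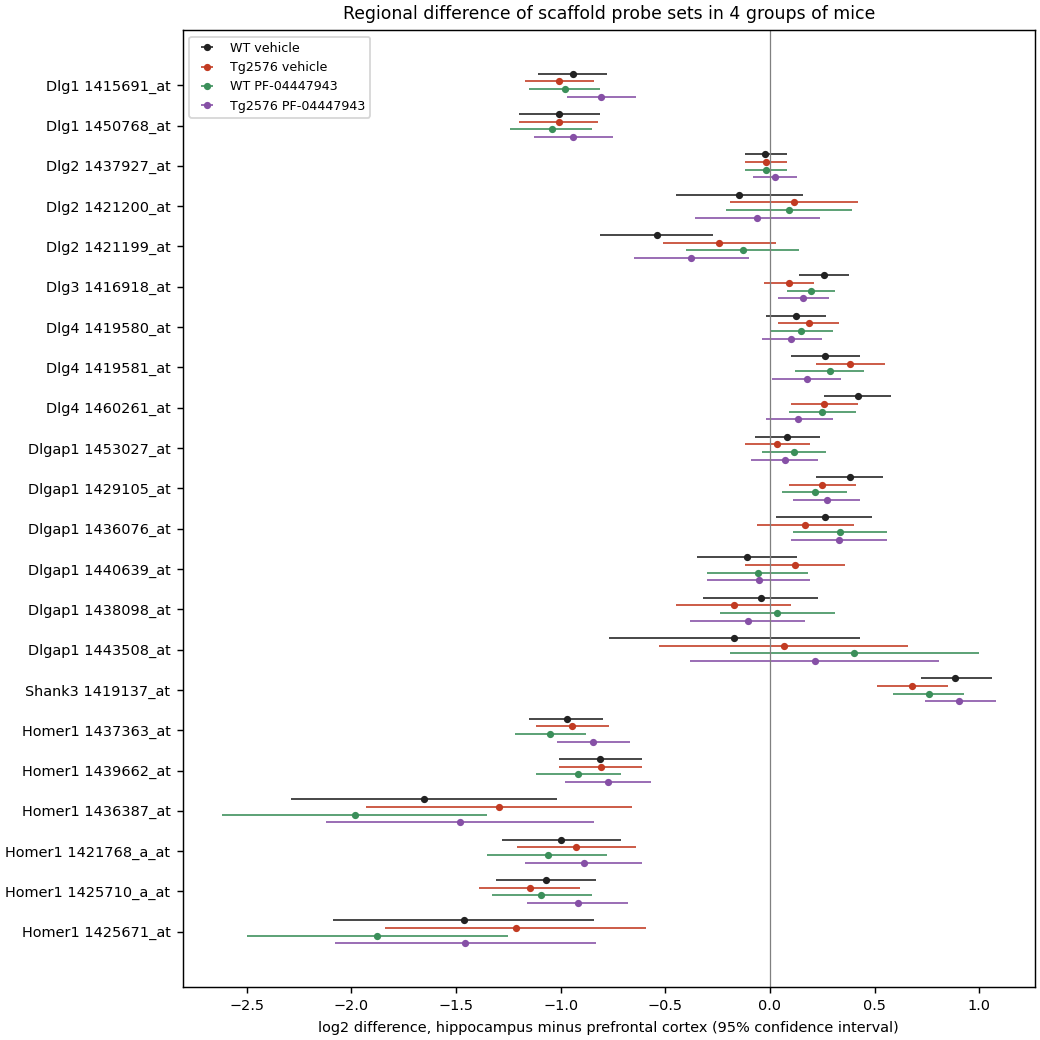
Log2 difference, hippocampus minus prefrontal cortex (horizontal axis), for the 22 tested scaffold probe sets in each of the 4 combinations of genotype and treatment, with bars for the 95% confidence interval of limma's fit. Dlg1 and Homer1 lie left of 0 in all 4, down to -1.99 for Homer1 1436387_at, and Shank3 lies right of 0 in all 4, at 0.68 to 0.91.

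Whether the regional differences themselves depended on genotype or drug was tested directly over both regions. For the drug effect by region, 0 of 22 scaffold probe sets passed in limma (0.0296% of all did), with a smallest adjusted p of 0.591. For the transgene effect by region, 0 of 22 passed (0% of all), with a smallest adjusted p of 0.781. At an unadjusted p under 0.05 the counts were 0 and 0 as well, against 9.09% and 6.09% of all probe sets. Without the array that goes against its label, the smallest adjusted p-values were 0.563 and 0.864.

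Other marker sets differed between the regions beside these genes. Excitatory neuron markers had group means of 12.55 to 12.69 in hippocampus and 11.95 to 12.03 in cortex, with 2 or 3 of 4 higher in hippocampus in each group of mice and 0 lower. Of 5 astrocyte markers, 2 were higher and 1 lower in each, with a median difference of 0.09 to 0.19. Of 4 tested choroid plexus markers, 4 were higher in hippocampus of vehicle-treated wild-type mice and 2 in each of the other 3 groups. Of 4 tested oligodendrocyte markers, 4 were higher in both wild-type groups and 3 in both Tg2576 groups. Going the other way, 0 of 5 inhibitory neuron markers were higher and 2 or 3 lower in hippocampus in each group of mice. Of 5 pan-neuronal markers, 1 was higher and 2 or 3 lower in each. Among all probe sets, 16.5% to 20.4% were higher and 18.2% to 29.8% lower. The part of these marker sets in the regional differences of the scaffold genes was not tested.

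Striatal marker genes varied widely in the cortical samples, which adjoin the striatum in the brain. The mean over 6 striatal genes lay between 8.20 and 8.72 on the 31 hippocampal arrays that matched their label and was 9.32 on the one that did not. In cortex it ran from 8.61 to 11.78 (wild-type, vehicle), 8.29 to 11.05 (wild-type, PF-04447943), 8.50 to 11.71 (Tg2576, vehicle) and 8.31 to 11.47 (Tg2576, PF-04447943). On 15 of the 32 cortical arrays it was above every hippocampal array, a cutoff set by the 9.32 of the array that goes against its label. Vehicle-treated Tg2576 replicate 4 (9.3), treated Tg2576 replicate 2 (9.16) and vehicle-treated wild-type replicate 7 (8.82) lay above the other 31 hippocampal arrays. These cortical arrays are counted among the other 17. On those 15 arrays, Dlgap1 1429105_at had a median of 10.99, against 11.22 on the other 17, and Dlgap1 1436076_at had 10.82 against 11.08. Homer1 1437363_at had 11.92 against 12.06, Shank3 10.26 against 10.41 and Dlg1 1415691_at 11.64 against 11.65. The dim Dlgap1 1443508_at went the other way, at 7.20 against 6.64.

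When those 15 arrays were left out, a choice made after seeing the data, the Dlg1, Shank3 and Homer1 calls remained. Dlg1 1415691_at then gave -0.93, -1.02, -1.04 and -0.80 (wild-type vehicle, wild-type PF-04447943, Tg2576 vehicle, Tg2576 PF-04447943). Shank3 gave 0.81, 0.69, 0.66 and 0.83 and Homer1 1437363_at gave -1.03, -1.12, -1.09 and -0.88 in the same order. Dlgap1 1429105_at fell short of the threshold in both treated groups, at 0.11 (adjusted p = 0.178) in wild-type and 0.15 (adjusted p = 0.0592) in Tg2576 mice, and Dlgap1 1436076_at passed in none. Dlg2 1421199_at passed in none (-0.41 in vehicle-treated wild-type mice, adjusted p = 0.0591). Dlg4 1419581_at lost its call in vehicle-treated wild-type mice (0.24, adjusted p = 0.0923), 1419580_at and 1460261_at lost theirs in vehicle-treated Tg2576 mice at 0.18 and 0.22, against 0.19 and 0.26 with all arrays, and Dlg3 lost its call in treated Tg2576 mice (0.13, adjusted p = 0.136). Dlgap1 1438098_at passed as lower in vehicle-treated Tg2576 mice (-0.32, adjusted p = 0.0469). Each cortical group then held 4 or 5 arrays, and what these lost calls owe to the smaller number was not tested.

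**Figure D3:**
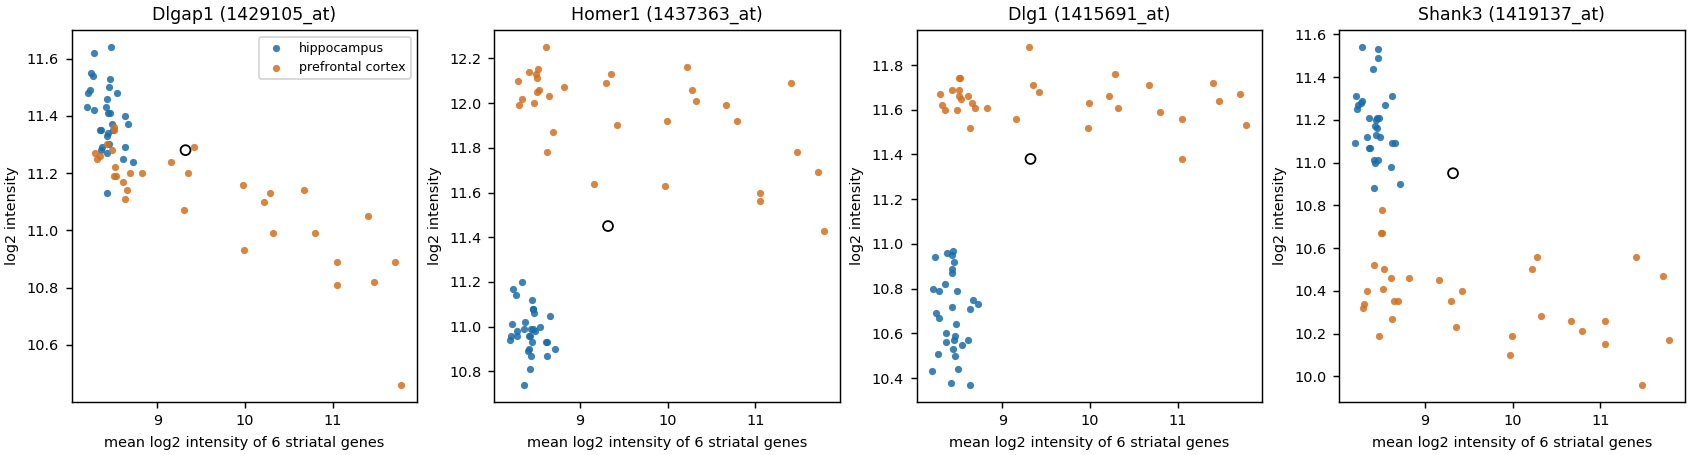
Log2 intensity of Dlgap1 1429105_at, Homer1 1437363_at, Dlg1 1415691_at and Shank3 1419137_at (vertical axes) against the mean log2 intensity of 6 striatal marker genes (horizontal axis), 1 point per array, hippocampus in blue and cortex in orange. Cortical arrays spread from 8.29 to 11.78 on the horizontal axis, with Dlgap1 lower towards the right and Dlg1 level; the open circle is the array labelled hippocampus, Tg2576, PF-04447943, replicate 1.

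Within each region, neither the transgene nor the drug changed any scaffold probe set past the threshold. In limma, 0 of 21 hippocampal and 0 of 22 cortical probe sets passed in each of 7 comparisons per region. For Tg2576 minus wild-type in hippocampus, all probe sets passed at 0.0962% over both treatments, 0.0111% under vehicle and 0% under PF-04447943. In cortex the same comparisons gave 0.0259%, 0% and 0%. For PF-04447943 minus vehicle, hippocampus gave 2.18% over both genotypes, 0% in Tg2576 and 0.0037% in wild-type mice, and cortex gave 0% in each. The drug by genotype interaction gave 0% in both regions. No scaffold probe set had groups of 8 free of overlap in any of the 8 pairings. Of all probe sets, the share without overlap between the genotypes was 0.037% under vehicle and 0.0222% under PF-04447943 in hippocampus, and 0.0777% and 0.0111% in cortex. Between the treatments it was 0.0148% in Tg2576 and 0.181% in wild-type hippocampus, and 0.0037% and 0.0111% in cortex.

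At an unadjusted p under 0.05, Tg2576 minus wild-type over both treatments counted 2 of 21 scaffold probe sets in hippocampus and 2 of 22 in cortex, where 7.42% and 11.3% of all probe sets did. Under vehicle alone the counts were 0 (6.11% of all) and 2 (10.8%), and under PF-04447943 0 (4.69%) and 2 (3.39%). The drug over both genotypes counted 5 of 21 in hippocampus (20.9% of all) and 1 of 22 in cortex (2.26%). In Tg2576 mice it counted 3 (10.7%) and 1 (2.93%), in wild-type mice 3 (15%) and 0 (2.43%), and the interaction counted 1 (3.43%) and 1 (3.06%). The hippocampal counts for the drug lie near the share of all probe sets, and the signal range of the arrays moved with the drug there: the group mean was 3.51 under vehicle in both genotypes, 3.65 in treated wild-type and 3.60 in treated Tg2576 mice. Its part in these values was not tested.

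The scaffold probe sets closest to the threshold under the drug were of Dlgap1 and Dlg4, in opposite directions. The 6 Dlgap1 probe sets did not all move alike in hippocampus. Dlgap1 1436076_at was higher by 0.16 over both genotypes, without passing. Group means of 1429105_at were 11.41 and 11.41 in wild-type and 11.35 and 11.4 in Tg2576 mice, vehicle first. Those of 1440639_at rose in wild-type (8.57 to 8.72) and fell in Tg2576 mice (8.82 to 8.66). Those of 1443508_at did likewise (7.01 to 7.51 and 7.24 to 7.1). Dlgap1 1453027_at ranged from 11.65 to 12.11 (median 11.98) under vehicle and from 11.95 to 12.30 (median 12.03) under PF-04447943 in wild-type hippocampus. In Tg2576 hippocampus the ranges were 11.78 to 11.95 (median 11.87) and 11.87 to 12.16 (median 12). The treated arrays lay toward the upper side, with overlap, and 15 of 16 lay above the vehicle mean. Over both genotypes the difference was 0.13 ± 0.043 (95% interval 0.05 to 0.22, adjusted p = 0.081 in limma).

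Dlgap1 1438098_at had 15 of 16 treated hippocampal arrays above the vehicle mean too, with a difference of 0.235 ± 0.077 that missed the threshold (adjusted p = 0.0859 in limma). Its ranges in hippocampus were 6.98 to 7.85 (median 7.33) and 7.50 to 8.01 (median 7.62) in wild-type mice and 7 to 7.56 (median 7.23) and 7.15 to 7.79 (median 7.50) in Tg2576 mice, vehicle first. Without the array that goes against its label, 1438098_at gave 0.26 ± 0.075 (adjusted p = 0.0591) and 1453027_at gave 0.14 (adjusted p = 0.067). Without vehicle-treated wild-type hippocampal replicate 7, Dlgap1 1453027_at gave 0.15 with an adjusted p of 0.0476, the 1 case in the drug and transgene comparisons in which leaving out an array brought a scaffold probe set past the threshold. With all arrays, 2.18% of all probe sets passed for the drug in hippocampus over both genotypes. The share without that array is not given here.

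Dlg4 1419581_at in Tg2576 hippocampus ranged from 10.54 to 10.99 (median 10.72) under vehicle and from 10.17 to 10.69 (median 10.40) under PF-04447943. The ranges overlap, and 8 of 8 treated arrays lay below the vehicle mean. The difference was -0.34 ± 0.095, with an adjusted p of 0.281 in limma, and without the array that goes against its label it was -0.33 (adjusted p = 0.385). In wild-type hippocampus Dlg4 1419581_at ranged from 10.42 to 11.16 (median 10.51) and from 10.29 to 10.89 (median 10.57). The difference between the genotypes in the drug effect was -0.32 ± 0.135 (adjusted p = 0.983), and -0.30 without the array that goes against its label (adjusted p = 1). A second Dlg4 probe set, 1419580_at, had a drug difference of -0.24 ± 0.087 in Tg2576 hippocampus (adjusted p = 0.358, and 0.411 without that array) and of -0.12 ± 0.039 over both genotypes in cortex (adjusted p = 1), so none of these Dlg4 values passed.

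For the transgene, the lowest unadjusted p-values in hippocampus belonged to Homer1 1421768_a_at, at 0.17 ± 0.076 over both treatments (adjusted p = 0.613 in limma, 13 of 16 Tg2576 arrays above the wild-type mean), and to Homer1 1425710_a_at, at 0.11 (adjusted p = 0.647). Without the array that goes against its label these were 0.14 (adjusted p = 0.753) and 0.09 (adjusted p = 0.776). In cortex they belonged to Dlg4 1460261_at, at 0.14 (adjusted p = 0.376), and Dlg1 1450768_at, at 0.08 (adjusted p = 0.439). The cortical Shank3 value for the drug by genotype interaction was -0.29 ± 0.119 (adjusted p = 1). The 95% intervals bound what could have been missed: over all scaffold probe sets they reached from -0.44 to 0.62 for the transgene and from -0.50 to 0.53 for the drug in hippocampus, and from -0.72 to 0.39 and from -0.66 to 0.76 in cortex. The median distance from the value to its bound was 0.14 for both in hippocampus and 0.16 and 0.15 in cortex.

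**Figure D4:**
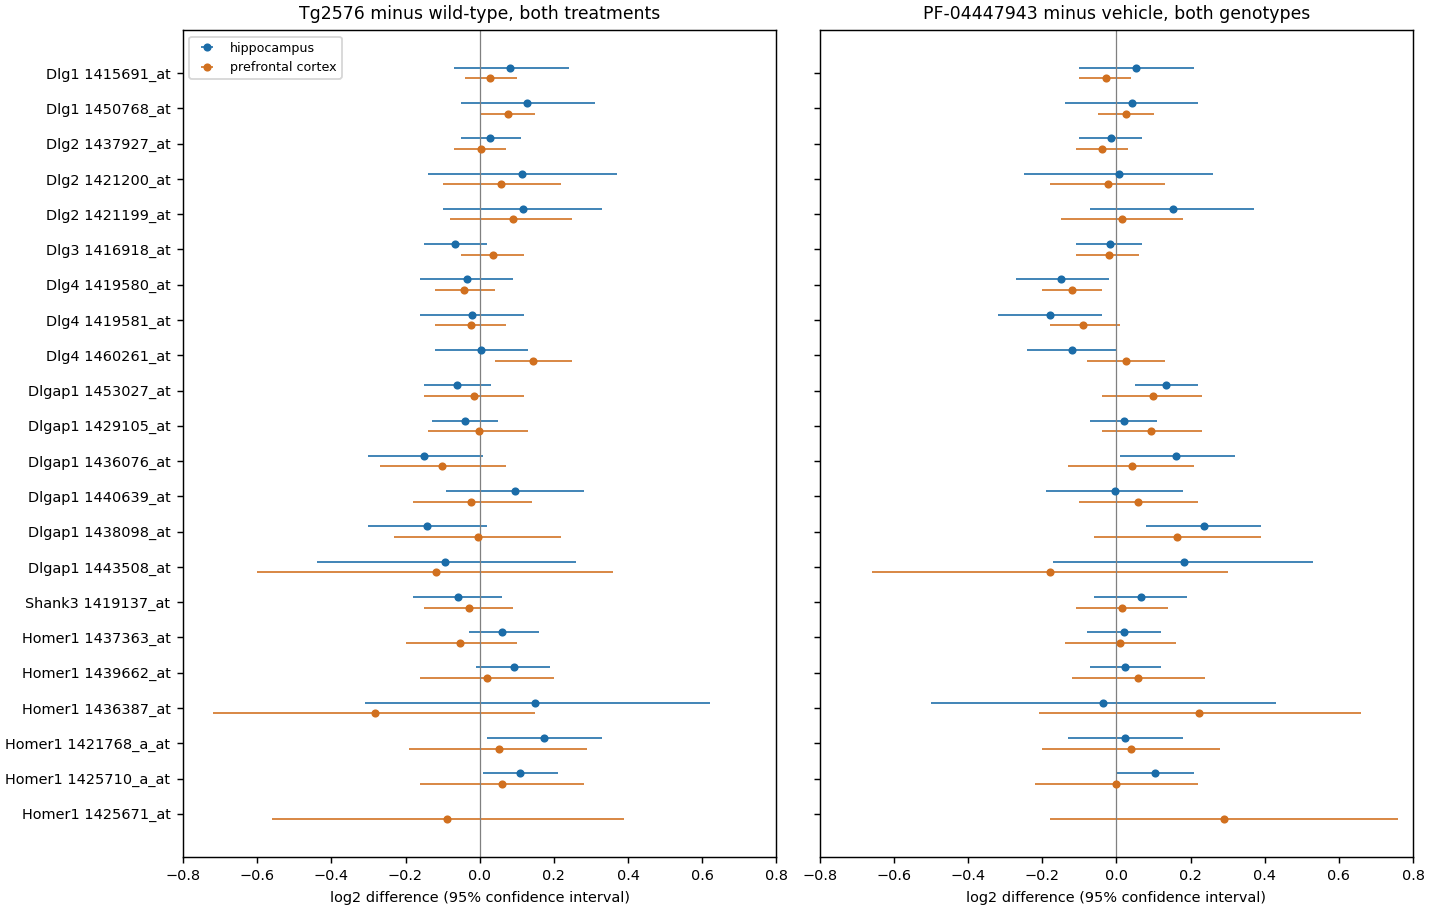
Log2 difference with its 95% confidence interval for the tested scaffold probe sets, Tg2576 minus wild-type over both treatments at left and PF-04447943 minus vehicle over both genotypes at right, hippocampus in blue and cortex in orange. The intervals lie between -0.72 and 0.76, and no probe set passed the threshold in either comparison.

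Homer1 probe sets differed in how far they followed neuronal activity genes from array to array. For each array, the deviation of a Homer1 probe set from its group mean was set against the mean deviation of 11 immediate early genes, which neurons switch on within minutes of firing. In hippocampus, Homer1 1436387_at had Pearson's r = 0.81 and Spearman's rho = 0.76 over 32 arrays, each with a two-sided permutation p of 1e-05, the smallest that 100000 resamples give, and 6e-05 after Benjamini-Hochberg adjustment over the 12 relations computed. Leaving out the 2 arrays farthest from the median of the early genes gave r = 0.82. Homer1 1425671_at, dim in hippocampus, followed in the same way (r = 0.76, rho = 0.73, adjusted permutation p = 6e-05, r = 0.77 without the farthest arrays). Homer1 1437363_at did so less, with r = 0.35 (permutation p = 0.05, adjusted 0.06), rho = 0.28 (permutation p = 0.12, adjusted 0.14) and r = 0.20 without the farthest arrays.

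Without the array that goes against its label, the hippocampal r was 0.77 for Homer1 1436387_at, 0.70 for 1425671_at and 0.13 for 1437363_at. Within single hippocampal groups, r for 1436387_at ran from 0.40 to 0.94. In cortex the order was not the same. Homer1 1436387_at had r = 0.49 (permutation p = 0.0038, adjusted 0.005), but its rho was 0.26 (permutation p = 0.15, adjusted 0.16) and r fell to 0.31 without the 2 farthest arrays. Homer1 1437363_at had r = 0.51 in cortex (permutation p = 0.0025, adjusted 0.0043), rho = 0.44 (permutation p = 0.013, adjusted 0.019) and r = 0.38 without the farthest arrays. Homer1 1425671_at had r = 0.58 there (permutation p = 0.00066, adjusted 0.0016), rho = 0.50 (permutation p = 0.0036, adjusted 0.0086) and r = 0.46. Striatal marker genes also varied among these cortical arrays, and their part in the cortical r values was not tested. Vehicle-treated Tg2576 replicate 8 was lowest in early genes (-1.102) with a striatal mean of 11.05. Treated Tg2576 replicate 3 had 11.4 with early genes at 0.662.

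The other 3 Homer1 probe sets had r of 0.26 to 0.50 in hippocampus and of 0.53 to 0.62 in cortex. Splitting the arrays by replicate number (1 to 4 and 5 to 8) gave r of 0.75 and 0.74 for Homer1 1436387_at in hippocampus and of 0.46 and 0.48 in cortex. Which of these probe sets reads the short, activity-induced Homer1 form is not given in the sources used here. Of the early genes themselves, 1 was higher and 5 lower in hippocampus of vehicle-treated wild-type mice (18.4% and 22.1% of all probe sets were), and 1 and 5 (Tg2576 vehicle), 1 and 4 (wild-type PF-04447943) and 0 and 2 (Tg2576 PF-04447943) in the other groups. In the first, Fos differed by -1.38, Egr1 by -1.06, Egr2 by -2.18 and Dusp1 by -1.40, while Bdnf differed by 0.67. In the drug and transgene comparisons within a region, 9 of the 11 were tested in hippocampus and 11 in cortex, and none passed. Early genes below the filter in hippocampus still entered the mean of 11 genes there.

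**Figure D5:**
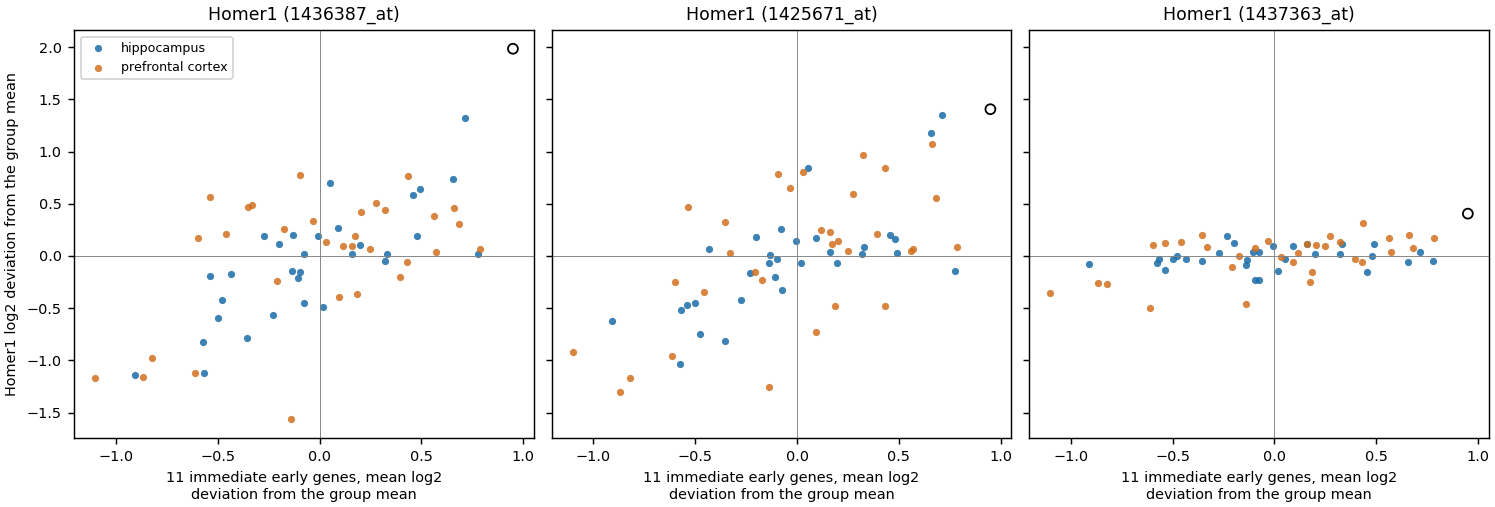
Deviation of Homer1 1436387_at, 1425671_at and 1437363_at from the group mean (vertical axis, log2) against the mean deviation of 11 immediate early genes (horizontal axis, log2), 1 point per array, hippocampus in blue and cortex in orange. In hippocampus, the points of 1436387_at and 1425671_at rise together with the early genes (r = 0.81 and 0.76), and those of 1437363_at form a flatter band (r = 0.35); the open circle is the array labelled hippocampus, Tg2576, PF-04447943, replicate 1.

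Related scaffolds and their partners in the wider pathway did not all share the direction of the gene of their own family. Of 22 tested relatives and scaffold-binding proteins, 7 were higher and 5 lower in hippocampus of vehicle-treated wild-type mice, where 18.4% and 22.1% of all probe sets were. Homer3, a paralog that joins the same complexes as Homer1, was higher in hippocampus by 2.36 (adjusted p = 6.79e-18 in limma) and by 2.10 to 2.39 over the 4 groups, and Homer2 was higher by 0.67 (adjusted p = 1.84e-06). Homer1 thus stood opposite to both of its paralogs. Lin7a and Cask, which form an adaptor complex with Dlg1, were lower in hippocampus with it, by -0.71 (adjusted p = 2.04e-11) and -0.64.

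Of 11 receptor and receptor-associated genes, 7 were higher and 2 lower in the same comparison (18.4% and 22.1% of all probe sets). The AMPA receptor subunit Gria1, a binding partner of the Dlg1 product, was higher in hippocampus by 1.44 (adjusted p = 2.15e-15 in limma) while Dlg1 was lower. The AMPA receptor auxiliary subunits bound by Dlg4 split, with Cacng8 at 1.06 and Cacng3 at -0.97. In the other 3 groups, 8 or 9 relatives were higher and 5 or 6 lower, and 5 to 7 receptor genes were higher and 2 lower, where 16.5% to 20.4% of all probe sets were higher and 18.2% to 29.8% lower. In the drug and transgene comparisons, 1 gene of these lists passed, Nlgn1, an adhesion protein that binds the Dlg4 product. It was higher with the drug by 0.235 ± 0.063 in hippocampus over both genotypes (adjusted p = 0.0455 in limma), where 2.18% of all probe sets passed. Its cortical difference was 0.18 (adjusted p = 1). Nearly all calls of that hippocampal comparison ended with the signal range of the arrays as a covariate, as given below. The Nlgn1 value under that covariate, or without the array that goes against its label, is not given here.

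The genes most like each scaffold gene's brightest probe set, by deviations from the group mean over the 64 arrays, are given as a description. Group means were subtracted first, so the regional contrast does not enter these r values. Dlg1 was most like Septin11 (r = 0.86), Arhgap32 (0.85) and Cobl (0.84). Shank3 was most like Jph3 (0.81), Nell2 (0.79) and Iqsec2 (0.77), and Homer1 most like Hivep2 (0.80), Spcs3 (0.78) and Kcnv1 (0.77). Dlgap1 was most like Zbtb18 (0.84), Scn8a (0.79) and Tcf4 (0.79), and Dlg3 most like 2700081O15Rik (0.86), Slc44a1 (0.84) and Susd6 (0.83). Dlg2 reached 0.71 with Gnao1, and Dlg4 reached only 0.56 with Csnk2a1.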

How the data were processed

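RNA of microdissected hippocampus and prefrontal cortex was hybridised to 64 Affymetrix arrays, 8 per group. The deposited values are linear intensity values. The submitters' processing notes name RMA as the authors' tool, without a version or a statement on whether all arrays were normalized together. They ran from 5.87 to 34088.93 and were converted to log2. Array number, not depth, limits precision: median intensity was 91.0 to 100.9 per array, and the lowest correlation between arrays of a region was 0.974 in hippocampus and 0.976 in cortex. Arrays have no identical pairs (0).

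Symbols came from the platform's annotation paired with RefSeq GRCm38.p6: 34945 probe sets had 1 symbol, 932 several and 9160 none, and 64 were controls. Promoters came from RefSeq, GRCm38.p6. Every probe set past the 40th percentile of mean log2 intensity was fitted with limma 3.58.1 in R 4.3.3, in 1 fit of 4 groups per region and 1 fit of 8 groups for regional differences, with Benjamini-Hochberg adjustment over all 27022 tested and a threshold of 0.05. The p-values measure the spread between arrays. The regional fit treats arrays as independent although both regions came from the same mice. The method was tested on simulated data.

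Members, gene lists and tests were chosen with earlier results of these data known. By the rule for naming, every scaffold probe set is accounted for; other genes come from the lists or are the 3 most alike. Alternatives were the filter, the normalization, the prior, array weights, covariates, blocks, the threshold and leaving out arrays. Figures used Python 3.11.15 and matplotlib 3.10.9.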

Additional observations from a re-analysis of the deposited data

Results flagged for a closer look

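Each scaffold probe set was searched in each group of 8 for an array whose gap to its nearest neighbour took more than 0.526 of the group's range (Dixon's 95% critical value). Of 192 searches, 20 found one, where chance gives about 1 in 20, or 9.6. Values are log2 intensities.

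Treated wild-type cortical replicate 8 stood below its group on all 6 Homer1 probe sets, at 11.56 (1437363_at), 10.47 (1439662_at), 9.69 (1436387_at), 8.87 (1421768_a_at), 8.89 (1425710_a_at) and 5.99 (1425671_at), and on Dlg1 1415691_at, at 11.38. Treated Tg2576 cortical replicate 1 was low on Homer1 1436387_at, at 9.91. In hippocampus, treated wild-type replicate 3 was low on Homer1 1437363_at (10.74) and 1421768_a_at (8.32), and vehicle-treated Tg2576 replicate 5 on Homer1 1425710_a_at (8.38).

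Vehicle-treated wild-type hippocampal replicate 8 stood above its group on Dlg4 1419580_at (11.24) and 1419581_at (11.16). Treated Tg2576 hippocampal replicate 6 stood below on Dlg2 1421200_at (7.59) and 1421199_at (7.35). In cortex, vehicle-treated wild-type replicate 7 stood apart on Dlg2 1421200_at (8.32), and treated wild-type replicate 1 on Dlg2 1437927_at (11.01). Vehicle-treated wild-type cortical replicate 5 stood apart on Dlgap1 1429105_at (10.46) and Shank1 1444240_at (5.58), and treated Tg2576 cortical replicate 6 on Dlg1 1445798_at (5.11).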

How the results depend on the processing

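None of the 54 regional calls changed its sign under an alternative run. Among values that were not called, signs changed: for 0 to 3 of 22 per regional comparison without the cortical arrays high in striatal genes, and for 0 to 6 per comparison without the array that goes against its label. The numbers of scaffold probe sets called between regions were 14, 13, 14 and 13 (wild-type vehicle, Tg2576 vehicle, wild-type PF-04447943, Tg2576 PF-04447943). With 1 probe set per gene, 4 were called in each of the 4 comparisons, of 7 tested, since fewer probe sets entered. The share of all probe sets called in that setting is not given here, so the 4 of 7 cannot be set against it. Leaving out 1 array gave 14 to 15, 12 to 13, 12 to 15 and 11 to 15. With the replicate number as a block the counts were 14, 13, 14 and 12, and 0 in each drug and transgene comparison; 2 of 54 regional calls were lost, Dlg4 1419580_at in vehicle-treated Tg2576 mice (0.19) and Dlg3 in treated Tg2576 mice (0.16). The labels do not say whether a number marks the same mouse in both regions. Hippocampal and cortical arrays of the same group and number correlated above 0.1 in 21 of 32 pairs, with a median r of 0.228. Among the 8 cortical arrays of their group, 16 of 32 hippocampal arrays matched their own number best, where a random pick would be right in 1 of 8 cases. The main regional fit is unpaired and does not use the numbers. Of the 54 regional calls, 10 were lost without the 15 cortical arrays high in striatal genes, 3 under median centring, 2 when only the groups compared were fitted, and 1 each under array weights and quantile normalization. For the drug in hippocampus over both genotypes, a threshold of 0.10 gave 2 called (Dlgap1 1453027_at and 1438098_at), and leaving out 1 array gave 0 to 1. The share of all probe sets in either setting is not given here, so these counts are not read as a result about Dlgap1. In that comparison 2.18% of all probe sets passed at 0.05, and 20.9% had an unadjusted p under 0.05 in limma. With the signal range as a covariate, calls over all probe sets in that comparison went from 589 to 1; the cause was not tested. Precision is limited by 8 arrays per group and, for Shank1 and Dlg1 1445798_at, by a signal near background.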
